A study of Mus musculus with 24 samples.

Results

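The cerebral cortex is built of layers of excitatory neurons, and each layer is marked by a small set of genes that are switched on as the neurons are born and settle. Cux1 and Cux2 mark the upper layers, Rorb the granular layer that receives thalamic input, and Bcl11b, Fezf2, Tbr1, Foxp2 and Crym the deep layers, while Neurod6 is made by excitatory neurons of all layers. Most of them encode transcription factors that fix where a neuron sends its axon, and several restrain one another: in mice, Fezf2 promotes the fate of neurons projecting below the cortex, and Tbr1 holds Fezf2 and Bcl11b down in corticothalamic neurons. These 9 genes were followed here, each through every probe set whose single gene symbol in the array's annotation was that gene. This gave 29 of the 45037 probe sets, and 9 of the 18193 genes that the annotation names with a single symbol. Of the 29 probe sets, 20 passed the filter on low values and were tested, and the other 9 were not.

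RNA was measured on 24 Affymetrix whole-genome mouse arrays of cerebral cortex, with white matter removed, from male FVB mice at postnatal day 7. There were 4 groups of 6 arrays: polyribosomal RNA of Fmr1 KO mice, polyribosomal RNA of WT littermates, total RNA of Fmr1 KO mice and total RNA of WT littermates. Fmr1 encodes FMRP, an RNA-binding protein that acts on translation and is lost in fragile X syndrome; the Fmr1 KO mice carry a null allele in all cells. Each genotype had 6 lysates, each a pool of the cortices of 2 mice, and each lysate gave 1 array of either RNA kind. Polyribosomal RNA was the pool of sucrose gradient fractions in which mRNAs carried 6 or more ribosomes, and total RNA was the part of the same cleared lysate kept back before the gradient. Since each array was loaded with an equal mass of RNA, a difference between polyribosomal and total RNA is relative to the other mRNAs on the array.

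The arrays were alike, with a median log2 value of 3.17 to 3.20 and 38.8% to 40.0% of probe sets at a log2 value of 4 or more. The Fmr1 probe set with the highest mean averaged 6.19 ± 0.48 in Fmr1 KO and 9.90 ± 0.21 in WT polyribosomal RNA (log2, SD, n = 6 each). In total RNA it averaged 6.38 ± 0.16 in Fmr1 KO and 9.66 ± 0.18 in WT, and in either RNA kind all Fmr1 KO arrays lay below all WT arrays (two-sided exact permutation test, p = 0.00216, the smallest that 924 splits allow). The tissue label was checked on 17 other genes of excitatory neurons as a class: 16 had a probe set, and all 16 reached a log2 value of 4 on all 24 arrays. Markers of other cells were present to differing degrees. A log2 value of 4 was reached on all 24 arrays by 12 of 14 interneuron genes, 10 of 10 astrocyte genes, 6 of 9 oligodendrocyte lineage genes, 2 of 8 microglial genes, 2 of 8 genes of endothelium and pericytes, 4 of 9 progenitor genes, 5 of 9 striatal genes, 5 of 8 genes of hippocampus and thalamus, and 1 of 8 genes of meninges and choroid plexus. The summed level of the last list varied most between arrays of a group, with log2 values of 6.91 to 12.20 in Fmr1 KO and 7.14 to 12.25 in WT polyribosomal RNA, and 7.85 to 11.44 in Fmr1 KO and 7.84 to 11.58 in WT total RNA. Within it, Ttr averaged 7.42 in Fmr1 KO and 9.78 in WT polyribosomal RNA, and 6.91 in Fmr1 KO and 8.93 in WT total RNA. Between genotypes 0 genes of this list were called in either RNA kind, and the part of the list in the results was not tested.

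The first question was how the mRNAs of these genes were divided between heavy polyribosomes and the lysate as a whole. Crym, Tbr1 and one or more probe sets of Bcl11b were higher in polyribosomal than in total RNA in both genotypes, and Foxp2 was lower in both. Neurod6, Cux2 and the brightest Rorb probe set did not pass the test in either. At the probe set with the highest mean, in Fmr1 KO lysates 3 of the 9 genes were higher in polyribosomal RNA (Fezf2, Tbr1 and Crym) and 2 were lower (Cux1 and Foxp2), where 38.7% and 28.2% of all genes tested were called higher and lower. In WT lysates 3 were higher (Bcl11b, Tbr1 and Crym) and 1 was lower (Foxp2), against 37.5% and 28.4% of all genes tested. A called difference was thus the common state of a gene in this comparison, and the share of the 9 genes that passed was no larger than that background. The median difference of the 9 genes was 0.16 in Fmr1 KO and 0.17 in WT, beside 0.087 and 0.089 over all genes tested.

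Over single probe sets, in Fmr1 KO lysates 6 of the 20 were higher and 5 lower in polyribosomal RNA, against 37.2% and 28.7% of all probe sets tested. In WT lysates 5 of the 20 were higher and 4 lower, against 36.2% and 29.1%. Polyribosomal and total arrays did not overlap for 3 of the 20 in Fmr1 KO and 4 of the 20 in WT, where 40.4% and 38.8% of all probe sets tested did not overlap. Values of a probe set are compared only between groups, because GCRMA values of different probe sets do not share a scale of abundance.

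**Figure D1:**
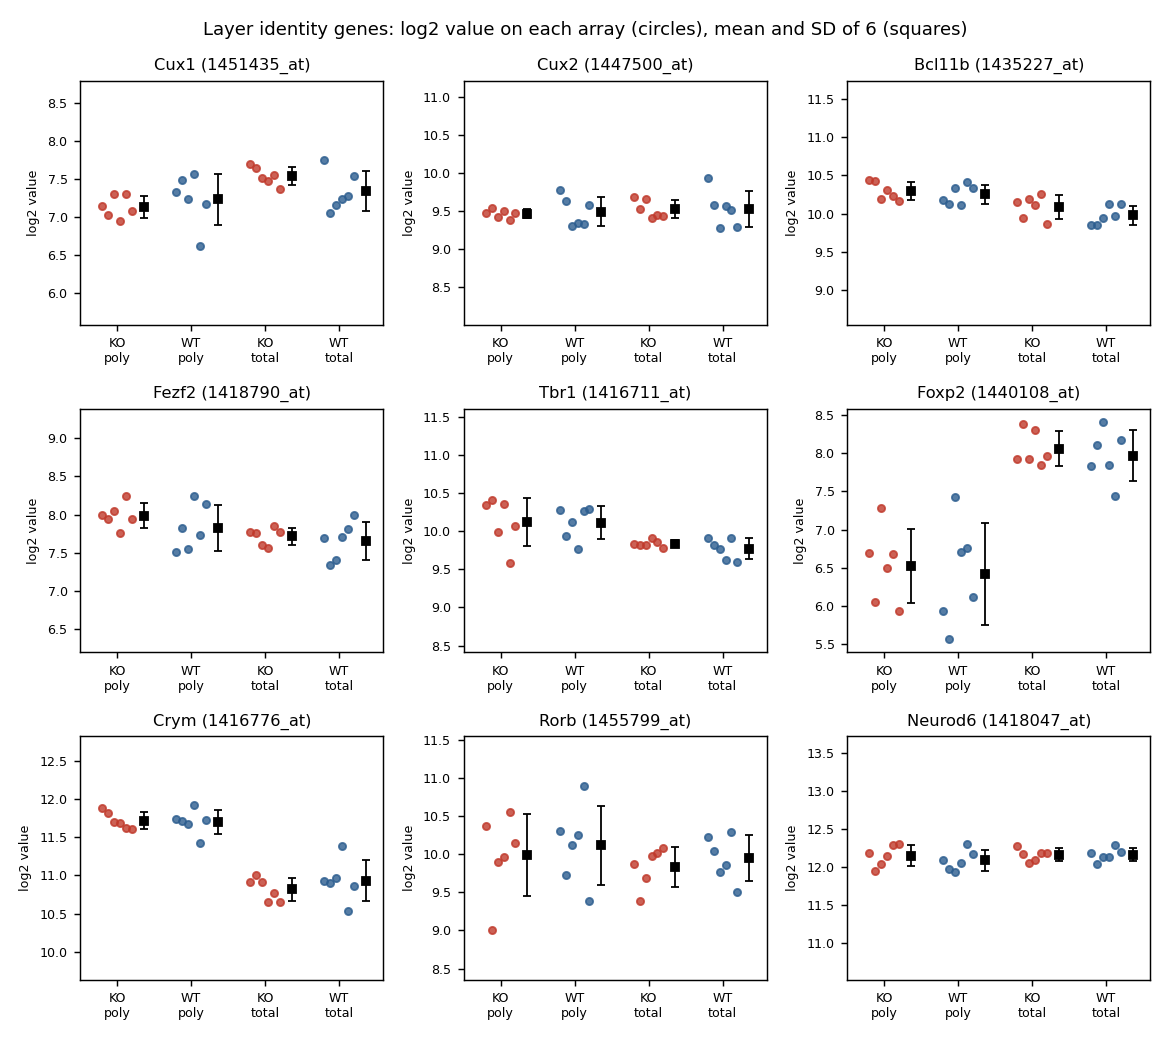
Log2 value of the probe set with the highest mean of each of the 9 genes on every array (circles), with the mean and SD of 6 arrays (squares), for polyribosomal and total RNA of Fmr1 KO and WT cortex. Foxp2 lies lower and Crym higher in polyribosomal RNA with no overlap in either genotype, while Fmr1 KO and WT circles overlap in every panel.

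Of the upper layer genes, Cux1 (chromosome 5), a homeodomain factor that shapes dendrites of upper layer neurons, gave probe sets that moved apart. Its brightest probe set, 1451435_at, had a lowest, median and highest log2 value of 6.94, 7.11 and 7.30 in Fmr1 KO polyribosomal RNA, against 7.37, 7.53 and 7.70 in Fmr1 KO total RNA. In WT the same values were 6.62, 7.28 and 7.57 in polyribosomal RNA, against 7.05, 7.26 and 7.75 in total RNA. The 2 RNA kinds did not overlap in Fmr1 KO, where all 6 lysates were lower in polyribosomal RNA, and overlapped in WT, where 3 of 6 were lower. The difference was -0.41 in Fmr1 KO (SE 0.086, adjusted p = 0.00129) and -0.10 in WT (SE 0.14, adjusted p = 0.534), and these did not differ beyond their error (difference between genotypes -0.31, 95% interval -0.68 to 0.07). A second probe set, 1425611_a_at, went the other way: it was higher in polyribosomal RNA in Fmr1 KO by 0.29 (adjusted p = 0.00686, 6 of 6 lysates), with a value of 0.12 in WT (adjusted p = 0.310). The third, 1434683_at, differed by -0.16 in either genotype and did not pass the test. With the 3 tested Cux1 probe sets averaged, the Fmr1 KO difference was -0.09 (adjusted p = 0.257; over all 13 alternatives for the brightest probe set, 0.000781 to 0.257), so the call for Cux1 rests on which probe set is read. The remaining 6 Cux1 probe sets stayed under a log2 value of 4 on all arrays.

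Cux2 (chromosome 5), the paralog of Cux1 in upper layer neurons and their progenitors, did not pass the test at its brightest probe set, and its intervals were narrow. Its brightest probe set, 1447500_at, averaged 9.47 ± 0.06 in polyribosomal and 9.53 ± 0.12 in total RNA of Fmr1 KO, and 9.50 ± 0.19 in polyribosomal and 9.53 ± 0.24 in total RNA of WT (SD, n = 6 each). The difference was -0.06 in Fmr1 KO (95% interval -0.23 to 0.12) and -0.03 in WT (95% interval -0.23 to 0.17). The dimmer probe set 1450181_at differed by 0.06 in Fmr1 KO (95% interval -0.16 to 0.28) and by 0.21 in WT (adjusted p = 0.0550). That WT value lay at the threshold, since it passed in 4 of 11 alternatives, both rescalings of the arrays included (adjusted p 0.0196 to 0.164).

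Rorb (chromosome 19), a nuclear receptor needed for the clustering of granular layer neurons around thalamic axons, did not pass the test between the 2 RNA kinds at its brightest probe set, 1455799_at, and varied widely in polyribosomal RNA. Its lowest, median and highest values were 9.01, 10.06 and 10.56 in Fmr1 KO polyribosomal RNA, against 9.38, 9.92 and 10.08 in Fmr1 KO total RNA. In WT they were 9.39, 10.19 and 10.89 in polyribosomal RNA, against 9.50, 9.95 and 10.30 in total RNA. The difference was 0.16 in Fmr1 KO (95% interval -0.10 to 0.41, adjusted p = 0.257) and 0.17 in WT (95% interval -0.09 to 0.43, adjusted p = 0.231). Of the other probe sets, 1439862_at was lower in polyribosomal RNA in WT by 0.33 (difference -0.33, adjusted p = 0.0183, 6 of 6 lysates) and had a difference of -0.21 in Fmr1 KO (adjusted p = 0.114). The WT call was lost without the lysate of replicate 2 (adjusted p = 0.0667) or 6 (adjusted p = 0.0695), and over all its alternatives the adjusted p was 0.0105 to 0.0695. The Fmr1 KO value passed only without replicate 5 (-0.28, adjusted p = 0.0334, range over the alternatives 0.0334 to 0.350). The probe set 1425162_at gave 0.19 in Fmr1 KO (adjusted p = 0.260) and 0.23 in WT (adjusted p = 0.127), and the WT value was 0.34 without replicate 6 (adjusted p = 0.0318, range 0.0318 to 0.417). The Rorb estimates thus differed in sign, but only the negative one of 1439862_at in WT passed the test. A Rorb probe set with a positive value passed in neither genotype with all lysates, unlike Cux1, whose probe sets passed in both directions in Fmr1 KO.

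Among the deep layer genes, Fezf2 (chromosome 14), the zinc finger factor that specifies neurons projecting to the brainstem and spinal cord, was modestly higher in polyribosomal RNA in Fmr1 KO. Its only probe set, 1418790_at, had values of 7.75, 7.97 and 8.25 (lowest, median, highest) in Fmr1 KO polyribosomal RNA, against 7.56, 7.76 and 7.85 in Fmr1 KO total RNA. In WT they were 7.50, 7.77 and 8.24 in polyribosomal RNA, against 7.34, 7.70 and 7.99 in total RNA. All 6 Fmr1 KO lysates were higher in polyribosomal RNA, and 4 of 6 WT lysates were. The difference was 0.27 in Fmr1 KO (SE 0.078, adjusted p = 0.00920) and 0.17 in WT (SE 0.11, adjusted p = 0.181), and the difference between genotypes, 0.10, had a 95% interval of -0.18 to 0.38.

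Bcl11b (chromosome 12), known as Ctip2, directs the outgrowth of corticospinal axons downstream of Fezf2 and is also made by striatal neurons. Of its 4 probe sets, all tested, 2 were clearly higher in polyribosomal RNA in both genotypes. For 1450339_a_at the lowest, median and highest values were 8.29, 8.80 and 8.95 in Fmr1 KO polyribosomal RNA, against 7.09, 8.03 and 8.31 in Fmr1 KO total RNA. In WT they were 8.40, 8.65 and 8.96 in polyribosomal RNA, against 7.55, 7.74 and 8.18 in total RNA. All 12 lysates were higher in polyribosomal RNA, by 0.82 in Fmr1 KO (95% interval 0.60 to 1.04, adjusted p = 2.39e-05) and 0.86 in WT (95% interval 0.59 to 1.12, adjusted p = 9.47e-05), with overlap of the groups in Fmr1 KO only. The probe set 1438784_at was higher by 0.50 in Fmr1 KO (adjusted p = 0.00141) and 0.40 in WT (adjusted p = 0.00357), again in all 12 lysates. The brightest probe set, 1435227_at, showed a smaller difference that lay near the threshold: 0.21 in Fmr1 KO (SE 0.089, adjusted p = 0.0563, 4 of 6 lysates) and 0.27 in WT (SE 0.087, adjusted p = 0.0161, 5 of 6 lysates). The Fmr1 KO value passed in 5 of 13 alternatives (adjusted p 0.000703 to 0.170), among them without replicate 3 or 5, and the WT call was lost without replicate 3 (adjusted p = 0.0547) or 5 (adjusted p = 0.0534) and held in the other 11 (range 0.00167 to 0.0547). The last probe set, 1452966_at, did not pass the test in either genotype, with -0.04 in Fmr1 KO (95% interval -0.23 to 0.16) and 0.02 in WT. Averaged over its 4 probe sets, Bcl11b was higher in polyribosomal RNA by 0.37 in Fmr1 KO (adjusted p = 0.000703) and 0.39 in WT (adjusted p = 0.00167).

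Tbr1 (chromosome 2), the T-box factor of corticothalamic neurons, was higher in polyribosomal RNA in both genotypes. Its probe set 1416711_at had values of 9.58, 10.21 and 10.41 (lowest, median, highest) in Fmr1 KO polyribosomal RNA, against 9.79, 9.83 and 9.91 in Fmr1 KO total RNA. In WT they were 9.77, 10.20 and 10.30 in polyribosomal RNA, against 9.60, 9.80 and 9.92 in total RNA. The difference was 0.29 in Fmr1 KO (SE 0.11, adjusted p = 0.0391, 5 of 6 lysates) and 0.34 in WT (SE 0.093, adjusted p = 0.00737, 6 of 6 lysates). The Fmr1 KO lysate of replicate 5 went the other way, at -0.28, and without it the difference was 0.40 (adjusted p = 0.00271). Its polyribosomal array had the lowest median correlation with the other arrays of its group (0.9933). Without this lysate 66.5% of all probe sets tested were called in Fmr1 KO, against 65.9% with all 6. Without any other single lysate the share was 59.4% to 64.1%. The Fmr1 KO call was lost without any other single lysate (replicates 1, 2, 3, 4 and 6, adjusted p 0.0526 to 0.113), without the lysate as a block (0.0522) and without the filter on low values (0.0573), with a range over all alternatives of 0.00271 to 0.113, whereas the WT call held in all 13 alternatives.

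Foxp2 (chromosome 6), a forkhead factor of corticothalamic neurons that is also made in the striatum and thalamus, had the largest difference of the 9 genes at their brightest probe sets, and was the only one called lower in polyribosomal RNA in both genotypes. At 1440108_at the Fmr1 KO lysates of replicates 1 to 6 had log2 values of 6.69, 6.05, 7.28, 6.50, 6.67 and 5.93 in polyribosomal RNA, against 7.93, 8.39, 7.92, 8.31, 7.85 and 7.97 in total RNA. The WT lysates had 5.92, 5.56, 7.43, 6.71, 6.76 and 6.11 in polyribosomal RNA, against 7.83, 8.12, 8.41, 7.85, 7.44 and 8.17 in total RNA. Every polyribosomal array lay below every total array of its genotype. The difference was -1.54 in Fmr1 KO (SE 0.19, adjusted p = 2.26e-05), which is 2.91-fold lower, and -1.55 in WT (SE 0.21, adjusted p = 6.52e-05), which is 2.94-fold lower. The next brightest probe set, 1438232_at, was lower in all 12 lysates too, by a difference of -1.43 in Fmr1 KO (adjusted p = 7.85e-05) and -1.09 in WT (adjusted p = 0.000896). The dim probe set 1438231_at was lower in 5 of 6 lysates of either genotype, at -0.59 in Fmr1 KO (adjusted p = 0.00672) and -0.47 in WT (adjusted p = 0.00784). The dimmest tested one, 1422014_at, was lower in Fmr1 KO (-0.34, adjusted p = 0.0106; 0.0693 without the lysate as a block, range over the alternatives 0.00217 to 0.0693) and gave -0.20 in WT (adjusted p = 0.193). Values under a log2 value of 4 occurred on polyribosomal arrays of these 2 dim probe sets, and for 1422014_at also on WT total arrays. The remaining Foxp2 probe sets, 1458191_at and 1441365_at, stayed under that value on all arrays and were not tested. The mean over the 4 tested probe sets differed by -0.97 in Fmr1 KO and -0.83 in WT, still past the threshold.

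Crym (chromosome 7) encodes mu-crystallin, a cytosolic protein that binds thyroid hormone and marks a part of the deep layer neurons. Of the 9 genes at their brightest probe sets it had the largest rise in polyribosomal RNA. Its probe set 1416776_at had values of 11.61, 11.69 and 11.88 (lowest, median, highest) in Fmr1 KO polyribosomal RNA, against 10.65, 10.84 and 11.01 in Fmr1 KO total RNA. In WT they were 11.42, 11.72 and 11.92 in polyribosomal RNA, against 10.54, 10.92 and 11.39 in total RNA. The 2 RNA kinds did not overlap in either genotype, and all 12 lysates were higher in polyribosomal RNA, by 0.79 to 1.03 in Fmr1 KO and 0.53 to 0.88 in WT. The difference was 0.90 in Fmr1 KO (SE 0.076, adjusted p = 1.60e-06, 1.87-fold) and 0.77 in WT (SE 0.083, adjusted p = 1.15e-05, 1.71-fold).

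Neurod6 (chromosome 6), a basic helix-loop-helix factor of postmitotic excitatory neurons, did not pass the test in either genotype. Its probe set 1418047_at averaged 12.15 ± 0.14 in polyribosomal and 12.16 ± 0.08 in total RNA of Fmr1 KO, and 12.09 ± 0.13 in polyribosomal and 12.17 ± 0.08 in total RNA of WT (SD, n = 6 each). The difference was -0.01 in Fmr1 KO (95% interval -0.19 to 0.17) and -0.08 in WT (95% interval -0.24 to 0.09), so a difference beyond about 0.24 in either direction lay outside both intervals.

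**Figure D2:**
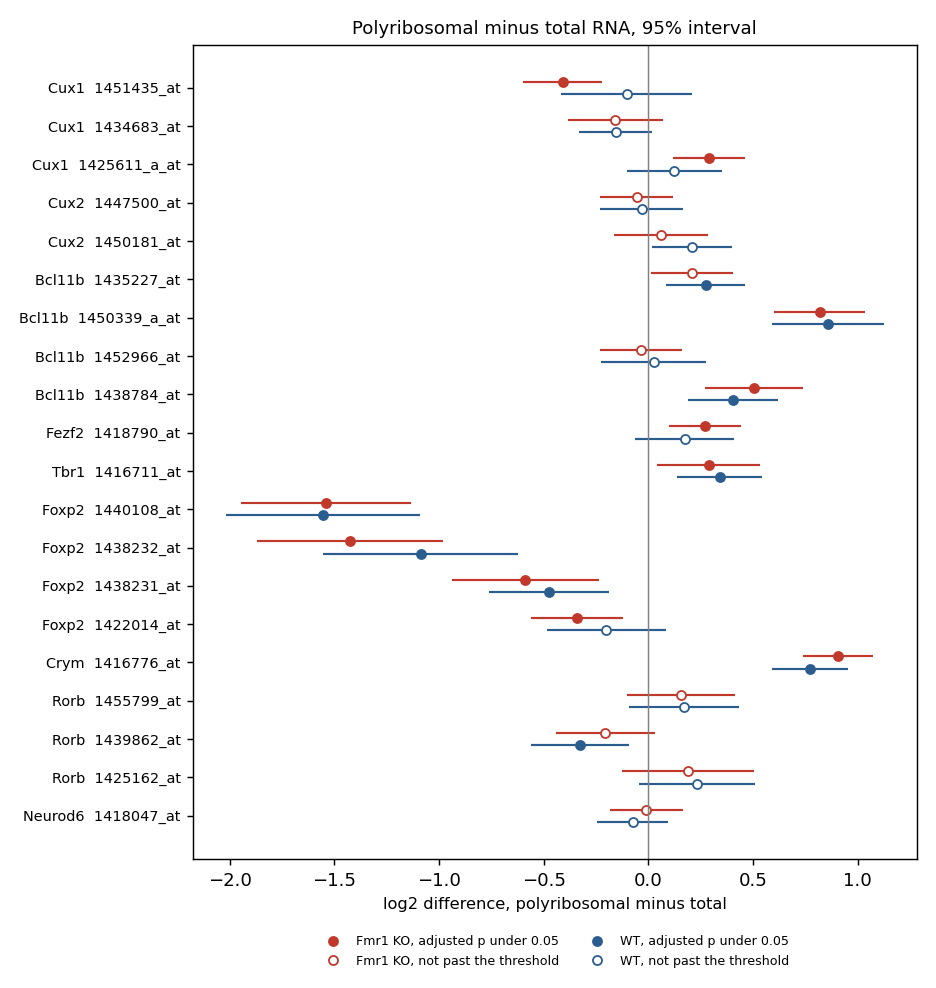
Polyribosomal minus total RNA (log2) with its 95% interval for each of the 20 tested probe sets, in Fmr1 KO (red, upper line of a pair) and WT (blue); filled points had an adjusted p under 0.05. The Foxp2 probe sets lie left of 0, down to -1.55, Crym and 1450339_a_at of Bcl11b lie right of 0, and probe sets of Cux1, Bcl11b and Rorb differ among themselves.

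Genes listed as markers of other cells moved in the same comparison, those listed for striatal neurons among them. Of 9 striatal genes with a probe set, 6 were tested, and 4 of these were higher in polyribosomal RNA and 0 lower in either genotype, where 38.7% of all genes tested were higher in Fmr1 KO and 37.5% in WT. The 2 with the largest differences, named after their values were seen, were Ppp1r1b (0.89 in Fmr1 KO, 0.84 in WT) and Penk (0.78 in Fmr1 KO, 0.82 in WT). The summed level of all 9 striatal genes with a probe set ranged from a log2 value of 11.15 to 11.92 in Fmr1 KO and 11.31 to 11.91 in WT polyribosomal RNA, against 10.63 to 11.48 in Fmr1 KO and 10.84 to 11.51 in WT total RNA. Such a sum depends most on its brightest probe set, that of Pde10a, which averaged 10.84 in Fmr1 KO polyribosomal RNA. Drd2 and Isl1 stayed under a log2 value of 4 on all arrays, and Drd1 did not pass the test. Rgs9 did not pass either, and averaged 5.04 in polyribosomal and 5.12 in total RNA of Fmr1 KO. The Bcl11b probe sets 1450339_a_at and 1438784_at rose with this list in both genotypes, 1435227_at passed in WT only, and 1452966_at in neither. Foxp2, which striatal neurons also make, fell, and the part of striatal RNA in either gene was not tested. Other lists held called genes as well. Of 10 astrocyte genes, 4 were higher in both genotypes, with 1 lower in Fmr1 KO and 2 lower in WT. Of 6 oligodendrocyte lineage genes tested, 3 were higher and 1 lower in both, and of 6 genes of hippocampus and thalamus, 4 were higher and 1 lower in both. Of 14 interneuron genes, 4 were higher and 5 lower in Fmr1 KO, and 3 higher and 5 lower in WT. Of 4 progenitor genes tested, 2 were higher and 1 lower in both genotypes, and of 3 endothelium and pericyte genes 2 were higher and 0 lower. Of 2 microglial genes 0 were higher and 1 lower in both. The meninges and choroid plexus list had 1 higher and 1 lower of 2 in Fmr1 KO, and 2 higher and 1 lower of 3 in WT. Over all genes tested 28.2% were lower in Fmr1 KO and 28.4% in WT, beside the shares of higher genes given above.

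The next question was whether the loss of Fmr1 changed these genes. No probe set of the 9 genes passed the test between Fmr1 KO and WT in either RNA kind. In polyribosomal RNA 0 of the 20 passed at an adjusted p under 0.05 in limma and 0 at an unadjusted one, where 0.0170% of all probe sets tested passed the adjusted and 2.67% the unadjusted threshold. The differences (Fmr1 KO minus WT) lay between -0.22 and 0.16, with 95% intervals reaching from -0.81 to 0.71. In total RNA, again 0 of the 20 passed at either threshold, where 0.0392% and 5.00% of all probe sets tested did, the differences lay between -0.18 and 0.31, and the intervals reached from -0.55 to 0.70. The Fmr1 KO and WT arrays overlapped for all 20 in both RNA kinds, where 0.119% of all probe sets tested did not overlap in polyribosomal and 0.325% in total RNA. In these bulk samples fewer cells of a layer and less RNA per cell could not be told apart.

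Within these limits some genes were bound more tightly than others. Neurod6 was the most tightly bound in total RNA, with a genotype difference of -0.00 (95% interval -0.13 to 0.12), and its interval in polyribosomal RNA was -0.15 to 0.27. For Crym the intervals were -0.19 to 0.23 in polyribosomal and -0.36 to 0.13 in total RNA. For Foxp2 at 1440108_at they were wide, -0.50 to 0.71 in polyribosomal and -0.22 to 0.41 in total RNA. Changes of this gene within those intervals were not excluded. The genotype difference nearest to the threshold in total RNA was that of Cux1 at 1451435_at, which averaged 7.54 ± 0.12 in Fmr1 KO and 7.34 ± 0.26 in WT (SD, n = 6 each; difference 0.20, 95% interval -0.03 to 0.43, limma adjusted p = 0.998).

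**Figure D3:**
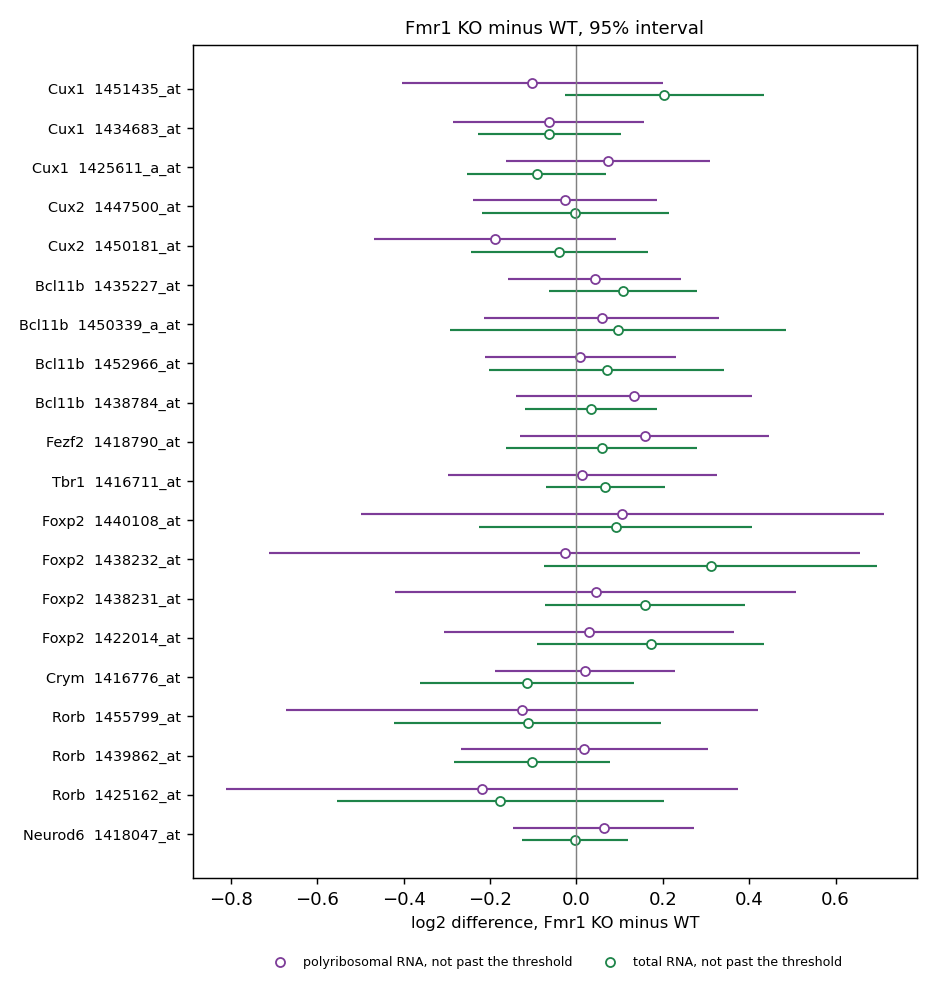
Fmr1 KO minus WT (log2) with its 95% interval for each of the 20 tested probe sets, in polyribosomal (purple, upper line of a pair) and total RNA (green). Every interval spans 0, and the widest ones belong to Foxp2 and Rorb in polyribosomal RNA.

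The difference between genotypes in the distribution between polyribosomal and total RNA was tested on the 12 lysate differences. Here too 0 of the 20 probe sets passed in limma, and 0 at an unadjusted p under 0.05, against 0% and 2.38% of all probe sets tested. The values (Fmr1 KO minus WT) lay between -0.34 and 0.17, and the 95% intervals reached from -1.05 to 0.70. For Foxp2 at 1440108_at, whose polyribosomal minus total difference was near -1.5 in both genotypes, the difference between them was 0.01 with an interval of -0.67 to 0.70. For Crym it was 0.13 (95% interval -0.08 to 0.34). The value nearest to the threshold was that of Cux1 at 1451435_at (-0.31, limma adjusted p = 0.999), so its call in Fmr1 KO alone, like that of Fezf2, was no shown difference between genotypes.

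Of the 9 genes, Foxp2 and Rorb varied most between lysates of one genotype in polyribosomal RNA. The SD of the polyribosomal arrays at 1440108_at of Foxp2 was 0.49 in Fmr1 KO and 0.68 in WT, above the SD of 96.9% and 99.6% of all probe sets tested, whose median SD was 0.217 and 0.227. At 1455799_at of Rorb it was 0.54 in Fmr1 KO and 0.52 in WT, above that of 98.2% and 97.3%. In total RNA the median SD of all probe sets tested was smaller, 0.141 in Fmr1 KO and 0.138 in WT. The spread of Foxp2 and Rorb was smaller there too, but still high among probe sets. At 1440108_at of Foxp2 the SD was 0.23 in Fmr1 KO and 0.34 in WT, above that of 82.4% and 97.1% of probe sets. At 1455799_at of Rorb it was 0.26 in Fmr1 KO and 0.30 in WT, above that of 88.2% and 95.04%. The largest SD of total arrays in Fmr1 KO was that of Bcl11b at 1450339_a_at (0.45, above that of 98.7%), followed by Rorb at 1425162_at (0.44, above that of 98.4%). In polyribosomal RNA of Fmr1 KO, Cux2 at 1447500_at stood at the other end, with an SD of 0.06, above that of 0.588% of probe sets.

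Lysate by lysate, the Foxp2 difference (polyribosomal minus total, 1440108_at) for replicates 1 to 6 was -1.24, -2.34, -0.64, -1.81, -1.18 and -2.04 in Fmr1 KO and -1.91, -2.55, -0.99, -1.14, -0.68 and -2.06 in WT. It was lowest in replicate 2 of both genotypes, and highest in replicate 3 of Fmr1 KO and replicate 5 of WT. The Rorb difference (1455799_at) was 0.50, -0.37, 0.21, -0.00, 0.54 and 0.06 in Fmr1 KO and 0.08, -0.31, 0.36, 0.40, 0.59 and -0.11 in WT, lowest in replicate 2 and highest in replicate 5 of both. After the 4 group means were subtracted, the 3 brighter Foxp2 probe sets moved together over the 24 arrays (Pearson r 0.889 to 0.921), and so did 1455799_at and 1425162_at of Rorb (r = 0.903). The Cux1 probe sets did not (r -0.28 to 0.30). These values describe 24 arrays that share 12 lysates and were normalized between arrays. Probe sets of a gene are not independent measures of it, and whether they read the same transcripts was not tested.

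**Figure D4:**
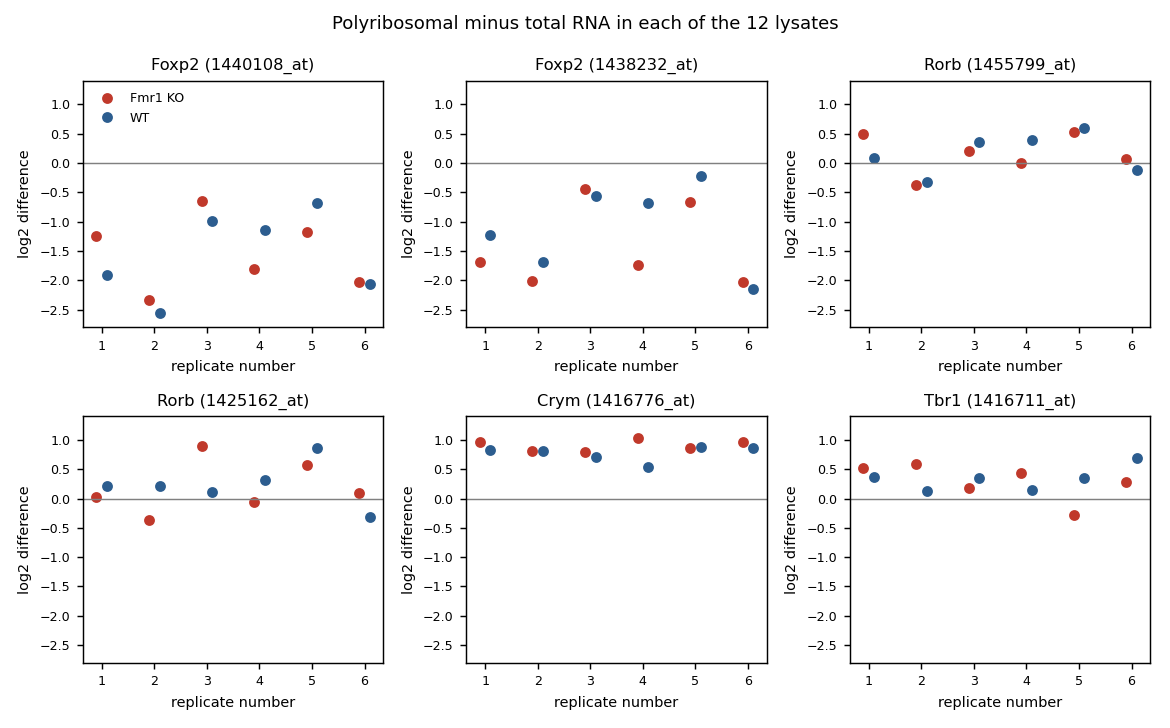
Polyribosomal minus total RNA (log2) in each of the 12 lysates by replicate number, Fmr1 KO red and WT blue, for 2 Foxp2 and 2 Rorb probe sets, Crym and Tbr1. Foxp2 ranges from -2.55 to -0.64 at 1440108_at but is below 0 in every lysate, Crym is tightly grouped between 0.53 and 1.03, and Rorb lies on both sides of 0.

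Between the 9 genes, at their brightest probe sets, the residuals of the 24 arrays were most alike for Rorb and Neurod6 (Pearson r = 0.54) and most opposed for Cux2 and Foxp2 (r = -0.58). This order differed between the RNA kinds, with 12 arrays in each. In polyribosomal RNA Bcl11b and Tbr1 were most alike (r = 0.68, against -0.40 in total RNA) and Cux2 and Foxp2 most opposed (r = -0.77, against -0.44 in total RNA). In total RNA Fezf2 and Neurod6 were most alike (r = 0.72) and Foxp2 and Rorb most opposed (r = -0.65), while Rorb and Neurod6 had r = 0.65 in polyribosomal and 0.20 in total RNA. Among 9946 genes compared in this way, Tbr1 was most like Parp1 (r = 0.93) and Dhx15 (r = 0.90), Rorb most like Klf12 (r = 0.88) and 6820431F20Rik (r = 0.86), and Neurod6 most like Tpm3 (r = 0.88) and Trim13 (r = 0.84). Foxp2 was most like Ppp3ca (r = 0.87) and Pura (r = 0.86), and Fezf2 most like Ddah2 (r = 0.85) and Spsb4 (r = 0.83). Cux2 was most like Luc7l (r = 0.82) and Letm1 (r = 0.80), and Cux1 most like Emc10 (r = 0.80) and Lbh (r = 0.77). Crym was most like Fibcd1 (r = 0.77) and Lzts3 (r = 0.74), and Bcl11b was least closely matched, by Zfp507 and Mre11a (r = 0.73 each).

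Other genes of the same neurons were read from 3 lists. Of 20 other upper layer genes, 16 were tested, and in Fmr1 KO 3 were higher and 9 lower in polyribosomal RNA, with a median difference of -0.30. Over all genes tested 38.7% were higher and 28.2% lower, with a median of 0.087. In WT 3 were higher and 6 lower, with a median of -0.19, where 37.5% of all genes tested were higher and 28.4% lower, with a median of 0.089. The 2 largest rises in both genotypes were those of Pou3f1, a POU factor (0.60 in Fmr1 KO, 0.58 in WT), and Lmo4, a LIM-only transcriptional cofactor (0.52 in Fmr1 KO, 0.43 in WT). The 2 largest falls were the netrin receptor Unc5d (-0.75) and the semaphorin receptor Plxnd1 (-0.68) in Fmr1 KO, and the cytokine gene Kitl (-0.69) and Unc5d (-0.58) in WT.

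Of 30 other deep layer genes, 27 were tested. In Fmr1 KO 7 were higher and 8 lower in polyribosomal RNA (median 0.04), and in WT 5 were higher and 9 lower (median 0.02), or 9 and 9 with each array centred on its median. Over all genes tested 38.7% were higher and 28.2% lower in Fmr1 KO, and 37.5% and 28.4% in WT, so the count of lower genes in Fmr1 KO lay near the background. Tshz2, a zinc finger factor, had a difference of -1.54 in Fmr1 KO and -1.32 in WT, and Pcp4, a small calmodulin regulator, of -1.46 in Fmr1 KO and -1.48 in WT, of a size with that of Foxp2. At the other end stood Sox5, an SRY-box factor of deep layer neurons (0.54 in Fmr1 KO, 0.73 in WT), Rprm (0.53) in Fmr1 KO and the HMG-box factor gene Tox (0.60) in WT.

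Of 17 other genes of excitatory neurons as a class, 16 were tested. In Fmr1 KO 2 were higher and 5 lower in polyribosomal RNA (median -0.01, which turned to 0.01 with arrays centred), and in WT 3 were higher and 6 lower (median 0.03). Beside these stand the same shares of all genes tested, 38.7% higher and 28.2% lower in Fmr1 KO (median 0.087) and 37.5% and 28.4% in WT (median 0.089). The AMPA receptor auxiliary subunit gene Cnih2 fell most, with a difference of -2.36 in Fmr1 KO and -2.09 in WT, followed by Nrn1, encoding a surface-anchored neurotrophic protein, with -1.03 in Fmr1 KO and -1.21 in WT. Baiap2, encoding a postsynaptic scaffold protein, was higher by 0.82 in Fmr1 KO and by 1.01 in WT, Neurod2 by 0.22 in Fmr1 KO, and the pentraxin gene Nptx1 by 0.30 in WT. Between Fmr1 KO and WT, 0 genes of these 3 lists passed the test in polyribosomal RNA, in total RNA or in the distribution between them. At an unadjusted p under 0.05, 1 of 16 upper layer, 1 of 26 deep layer and 0 of 16 class-wide genes passed in polyribosomal RNA. In total RNA these were 2 of 16, 1 of 27 and 1 of 16, and in the distribution 0 in each list. Of all probe sets tested, 2.67% passed that threshold in polyribosomal RNA, 5.00% in total RNA and 2.38% in the distribution.

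**Figure D5:**
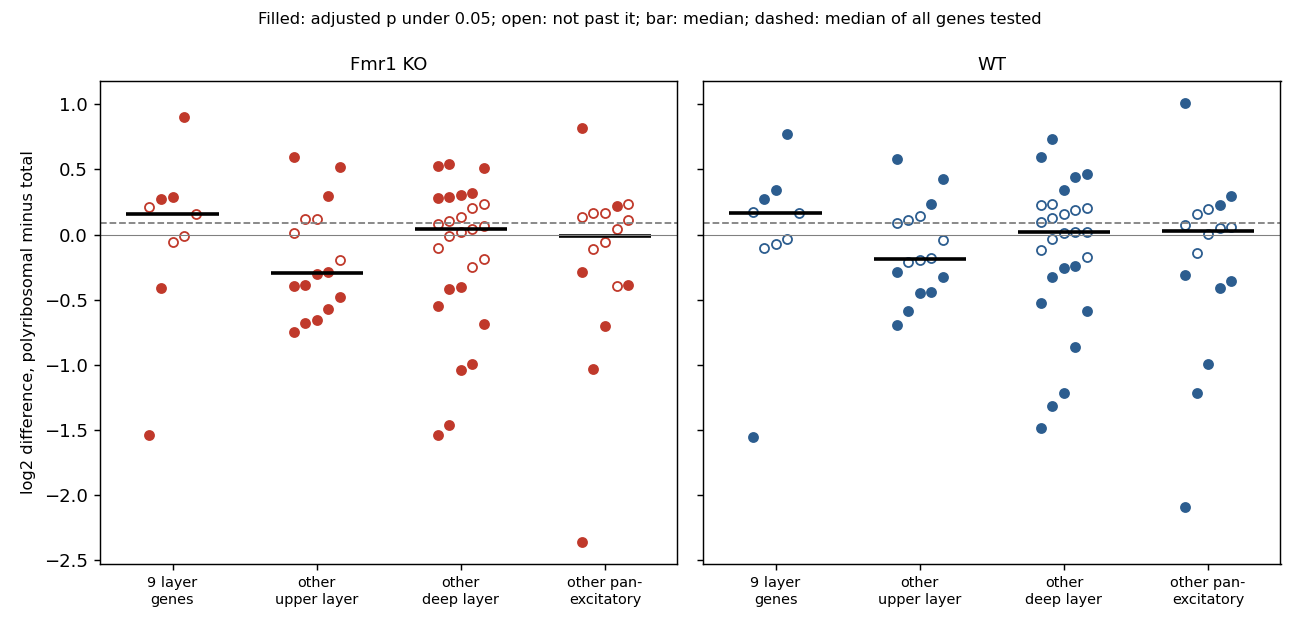
Polyribosomal minus total RNA (log2) of the 9 layer identity genes and of the genes of 3 other lists, 1 point a gene at its brightest probe set, in Fmr1 KO (left) and WT (right); filled points had an adjusted p under 0.05, bars are medians and the dashed line is the median of all genes tested. The other upper layer genes have the lowest median (-0.30 in Fmr1 KO, -0.19 in WT), and each list holds genes on both sides of 0.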

How the data were processed

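The submitters deposited 1 log2 value per probe set and array; per the submitters' processing notes these were made with GCRMA, which corrects background, normalizes between arrays and summarizes probe sets. The log2 scale was judged from the values, and the GCRMA version and whether all 24 arrays were normalized together are not given in the sources used here. Of 45037 probe sets, 34945 had 1 gene symbol in the platform annotation, which can be old; chromosomes came from the RefSeq table of GRCm38.p6. The number of arrays limits the precision.

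Low values were filtered: a probe set entered a test if 6 or more of the arrays compared had a log2 value of 4 or more. Two-sided tests of all these probe sets were run in R 4.3.3 with the lmFit and eBayes functions of limma 3.58.1, with Benjamini-Hochberg adjustment over them and a threshold of 0.05, and every adjusted p in the text is from it. Polyribosomal and total RNA were compared within each genotype with the lysate (arrays of one replicate number) as a block, Fmr1 KO and WT within each RNA kind without a block, and the distribution between RNA kinds through the 12 per-lysate differences. A gene was represented by its probe set with the highest mean over 24 arrays. The fit was tested on simulated data. Plots used Python 3.11.15 and matplotlib 3.10.9.

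Named were all 9 genes with their probe sets, in each of the 3 lists of other layer and excitatory genes the 2 largest called rises and falls, and for likeness the 2 genes with the highest Pearson r after subtraction of group means. The genes and lists were chosen with earlier results of these data known, so nothing here is independent support for patterns already seen in them. Alternatives were no filter, a log2 minimum of 5, arrays centred on their median, a repeated quantile normalization, eBayes with trend and robust settings, the mean of a gene's tested probe sets, the replicate block or its omission, and leaving out each replicate.

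Whether replicate numbers pair the samples was checked by correlating residuals after subtraction of group means. The polyribosomal and total arrays of one number come from 1 lysate per the labels' protocols (r 0.156 to 0.474 in Fmr1 KO and 0.021 to 0.525 in WT). The labels mention littermate pairs without saying that the number marks them. Same-numbered Fmr1 KO and WT arrays had r of 0.133 to 0.532 in total RNA, over 0.1 in 6 of 6, and -0.14 to 0.625 in polyribosomal RNA, over 0.1 in 4 of 6.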

Additional observations from a re-analysis of the deposited data

Results flagged for a closer look

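Each tested probe set was examined in each of the 4 groups for an array far from the other 5 (the gap to its nearest neighbour over the group's range, above Dixon's 95% critical value). Chance flags about 1 in 20 groups, and 3 of 80 were found. For Cux1, 1434683_at was lowest in WT total RNA of replicate 3 at 6.78, with the other arrays from 6.97 to 7.05. For Bcl11b, 1452966_at was highest in Fmr1 KO total RNA of replicate 5 at 8.54, with the other arrays from 8.16 to 8.27. For Rorb, 1425162_at was lowest in Fmr1 KO polyribosomal RNA of replicate 2 at 5.24, with the other arrays from 6.32 to 6.96. None of these 3 probe sets was called in a comparison that uses the array named.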

How the results depend on the processing

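No call between polyribosomal and total RNA reversed. Among the 9 genes, 4 to 6 were called in Fmr1 KO and 3 to 4 in WT over all alternatives run. Among the 20 probe sets, 9 to 13 were called in Fmr1 KO and 8 to 10 in WT. The share called over all features tested moved as well. It ran from 34.5% without the filter to 68.6% with a log2 minimum of 5 in Fmr1 KO. In WT it ran from 35% to 67.9% with the same 2 settings. Of 492 alternative values for these 40 results, 13 lost and 11 gained a call, and a further 13 values, all of results without a call, changed sign. The gains and losses fell on Tbr1, Cux1, Foxp2 (1422014_at), Bcl11b (1435227_at), Rorb (1439862_at and 1425162_at) and Cux2 (1450181_at), with values beside their results; the cause was not tested. Without the lysate as a block 4 genes and 9 probe sets were called in Fmr1 KO, and 4 and 9 in WT. Of all probe sets tested, 62.6% in Fmr1 KO and 63.2% in WT were called in that setting. With the replicate block, 0 of the 20 probe sets were called between Fmr1 KO and WT in either RNA kind or in the distribution between them, as without it. Of all probe sets tested with that block, 0.017% were called in polyribosomal RNA, 0.0224% in total RNA and 0% in the distribution. The labels do not say that the replicate number marks littermate pairs. In the genotype comparisons and the distribution, 0 of 739 alternative values were called. The median 95% interval over all probe sets reached 0.278 to either side of a genotype difference in polyribosomal RNA and 0.175 in total RNA. Smaller changes than these were in general not detectable with 6 lysates a genotype. The intervals are not adjusted for the number of probe sets tested, so larger changes than these could also miss the adjusted threshold.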
